A study of Mus musculus with 6 samples.

Results

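The genes described here are 10 grouped as secreted products of Paneth cells with roles in defence or digestion: Lyz1, Lyz2, Mmp7, Itln1, Mptx1, Mptx2, Ang4, Defa17, Defa24 and Pnliprp2. Lyz2 is an exception, being the lysozyme of macrophages and other myeloid cells. They were found by an exact match of the gene symbol, and all 10 were among the 27179 genes of the deposited table. RNA was sequenced from wild-type mouse small intestinal organoids, which are crypt epithelium grown in a drop of Matrigel with the medium Intesticult, after 17 h with the thyroid hormone T3 at 1e-07 M (3 libraries) or with its vehicle (3 libraries). Strain, age and sex are not given, nor is whether the 3 libraries of a group came from separate animals or cultures, so the p-values below speak of library-to-library spread, part or all of which could be technical. Organoids of this kind hold epithelium and lack the immune cells, microbes and connective tissue of the gut.

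Paneth cells sit at the base of small intestinal crypts between the stem cells and release granules of antimicrobial proteins into the crypt. Lysozyme cuts bacterial cell walls, alpha-defensins (called cryptdins in the mouse gut) disrupt bacterial membranes, and matrilysin, the product of Mmp7, cuts the alpha-defensin precursors into their active form. Intelectins and pentraxins bind microbial surfaces, angiogenins are secreted ribonucleases, and Pnliprp2 is a lipase related to pancreatic lipase.

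With T3, Itln1 was 2.49-fold higher, Mptx1 2.17-fold, Mptx2 2.10-fold and Mmp7 1.43-fold, and Pnliprp2 was 1.71-fold lower. Lyz1, Ang4, Defa17 and Defa24 were not called, and Lyz2 was too low to be tested. In all, 4 of 9 tested genes were called higher and 1 lower, 55.6% of them. Over all 13052 genes tested, 44.8% were called in the same comparison, 24% higher and 20.8% lower, so the share among these genes is near the background. A gene is called here at an adjusted p under 0.05 in limma, a linear model with moderated variances, on log2(value + 1), with Benjamini-Hochberg adjustment over all genes tested. Fold changes are on that scale. Values are normalized reads, which the authors scaled between libraries. In such bulk libraries, a change in the number of Paneth cells and a change in RNA per cell cannot be told apart.

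Sequences upstream of the start site are shown for the pairs of close relatives whose levels differ widely, Lyz1 with Lyz2 and Mptx1 with Mptx2, and for the most abundant product that was higher with T3, Itln1, and the defensin-cutting enzyme Mmp7. They are the 150 bases before each RefSeq start site on GRCm38.p6, read 5′ to 3′ on the strand of the gene. Capitals mark the bases at which the members of a pair differ within their aligned stretch. In Mmp7 they mark the letters TATAAA, found 123 and 26 bases before the start, and Itln1 has none.
Lyz1: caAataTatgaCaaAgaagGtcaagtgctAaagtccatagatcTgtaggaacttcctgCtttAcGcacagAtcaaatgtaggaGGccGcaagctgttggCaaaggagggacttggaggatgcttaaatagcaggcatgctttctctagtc
Lyz2: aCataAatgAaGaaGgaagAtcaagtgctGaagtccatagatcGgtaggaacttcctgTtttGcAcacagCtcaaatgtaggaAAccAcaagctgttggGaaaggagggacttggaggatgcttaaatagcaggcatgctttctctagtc
Mptx1: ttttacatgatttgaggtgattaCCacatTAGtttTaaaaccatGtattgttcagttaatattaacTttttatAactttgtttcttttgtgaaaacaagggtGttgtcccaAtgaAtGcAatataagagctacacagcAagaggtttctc
Mptx2: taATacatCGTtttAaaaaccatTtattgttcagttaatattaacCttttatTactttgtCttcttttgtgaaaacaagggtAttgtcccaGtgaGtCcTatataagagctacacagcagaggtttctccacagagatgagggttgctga
Itln1: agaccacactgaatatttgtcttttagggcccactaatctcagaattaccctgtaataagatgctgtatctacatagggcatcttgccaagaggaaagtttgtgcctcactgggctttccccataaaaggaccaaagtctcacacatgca
Mmp7: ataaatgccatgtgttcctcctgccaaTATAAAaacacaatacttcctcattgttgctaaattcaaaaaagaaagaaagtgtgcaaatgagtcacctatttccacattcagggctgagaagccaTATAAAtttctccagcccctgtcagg
In order, these lie at chr10:117292869-117293018 (minus strand), chr10:117282273-117282422 (minus), chr1:174330368-174330517 (plus), chr1:173277757-173277906 (minus), chr1:171535295-171535444 (minus) and chr9:7691940-7692089 (plus). The Lyz1 and Lyz2 stretches were identical at 134 of 150 aligned positions (89.3%), and those of Mptx1 and Mptx2 at 114 of 130 (87.7%). Of the 10 genes 8 had an entry in the RefSeq promoter table, all but Defa17 and Defa24.

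A small set of motifs was searched on both strands of the 250 bases before the start site. AGGTCA, a hexamer bound by many nuclear receptors, was found in Lyz1 (133 bases before the start) and in none of the other 7 promoters. TATAAA was found in Mmp7 and Mptx1, and CTTTGA, part of the site of Wnt-responsive TCF factors, in Mptx1 and Pnliprp2. Among 32851 promoters of the same length, 14% hold AGGTCA, 12.4% hold TATAAA and 13.8% hold CTTTGA. Neither AGGTCA nor the other motifs were found in the Itln1 stretch, which says only that these letters are not in it.

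Lyz1, the lysozyme gene that marks Paneth cells (gene ID 17110, GRCm38 chromosome 10, 117287795 to 117292868, 4 exons), stood at 10526, 11488 and 10074 normalized reads in vehicle replicates 1 to 3 and at 9509, 10427 and 6917 in T3 replicates 1 to 3. The groups overlapped, and T3 replicate 3 was the lowest of the 6 libraries. The log2 fold change was -0.28 ± 0.13 (SE, n = 3 per group), with a 95% interval of -0.56 to 0.01 and a limma adjusted p of 0.104. This call depends on the analysis, and Lyz1 was called lower in 3 of 17 alternatives. These were equal column totals (log2 -0.34, limma adjusted p = 0.0409), a replicate block (limma adjusted p = 0.0275) and leaving out T3 replicate 2 (log2 -0.40, limma adjusted p = 0.0247). Without T3 replicate 3 the log2 fold change was -0.10 (limma adjusted p = 0.216). In the authors' deposited table the adjusted p of Lyz1 was 0.285.

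Lyz2, the lysozyme of macrophages and other myeloid cells (gene ID 17105), lies 5.52 kb from Lyz1 on the same strand of chromosome 10 (117277541 to 117282272). It was listed at 4, 4 and 3 normalized reads with vehicle and at 6, 2 and 3 with T3, so it was near 0 in every library. The 2 transcripts are 95.8% identical where they align, yet Lyz1 was at 6917 or more in each of the same libraries. Only 16.1% of the 50-base windows of the Lyz1 transcript also occur in Lyz2, so reads from most of its length can be told apart. The log2 ratio of Lyz1 to Lyz2 was 11.17 ± 0.13 with vehicle and 10.98 ± 0.70 with T3 (SD, n = 3; exact permutation test, two-sided p = 0.7, adjusted p = 1 over 3 pairs, where the smallest possible p is 0.1). Of 12 macrophage and monocyte markers, 9 had a mean under 10 and 4 of these, Adgre1 among them, were at 0 in every library. Their sum was 230 to 266 with vehicle and 539 to 570 with T3, and most of the difference was in Itgam, an integrin chain (97.3 ± 15.2 with vehicle and 349 ± 7.55 with T3).

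Itln1, the intelectin gene (gene ID 16429, chromosome 1, 171518123 to 171535294, 8 exons), had the highest read number of the 10. It stood at 32942, 32862 and 31075 normalized reads with vehicle and at 90605, 78019 and 73333 with T3. The lowest T3 library was above the highest vehicle library by more than the whole vehicle level. The log2 fold change was 1.32 ± 0.08 (SE), with a 95% interval of 1.15 to 1.48 and a limma adjusted p of 8.61e-07. It was called in all 17 alternative analyses, with a log2 fold change of 1.23 to 1.38 when single libraries were left out. Intelectin is also made by goblet cells, of whose 8 markers 1 (Clca1) was called higher and 0 lower (24% and 20.8% over all genes). Enterocyte markers summed to 49834 to 54060 with vehicle and 85386 to 100540 with T3, and crypt stem cell markers to 95514 to 110737 and 66822 to 75545. Of 8 enterocyte markers 5 were called higher and 1, Fabp2, lower (75% called against 44.8% over all genes). Of 6 crypt markers 5 were called lower (83.3% called). Slc12a2, the largest of these, was not (43303 ± 4457 with vehicle and 45448 ± 2999 with T3). The part of these shifts in the change of Itln1 and of the other genes below was not tested.

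Itln1 dominated the sum over the 10 genes. It made up 48.7% to 53% of the 10 genes' normalized reads with vehicle and 68.9% to 75.2% with T3. The 10 genes together held 0.217%, 0.239% and 0.22% of all normalized reads with vehicle and 0.412%, 0.379% and 0.33% with T3. Without Itln1 the sums were 29259, 34638 and 31881 with vehicle and 32986, 35224 and 24123 with T3, and the groups overlapped.

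**Figure D1:**
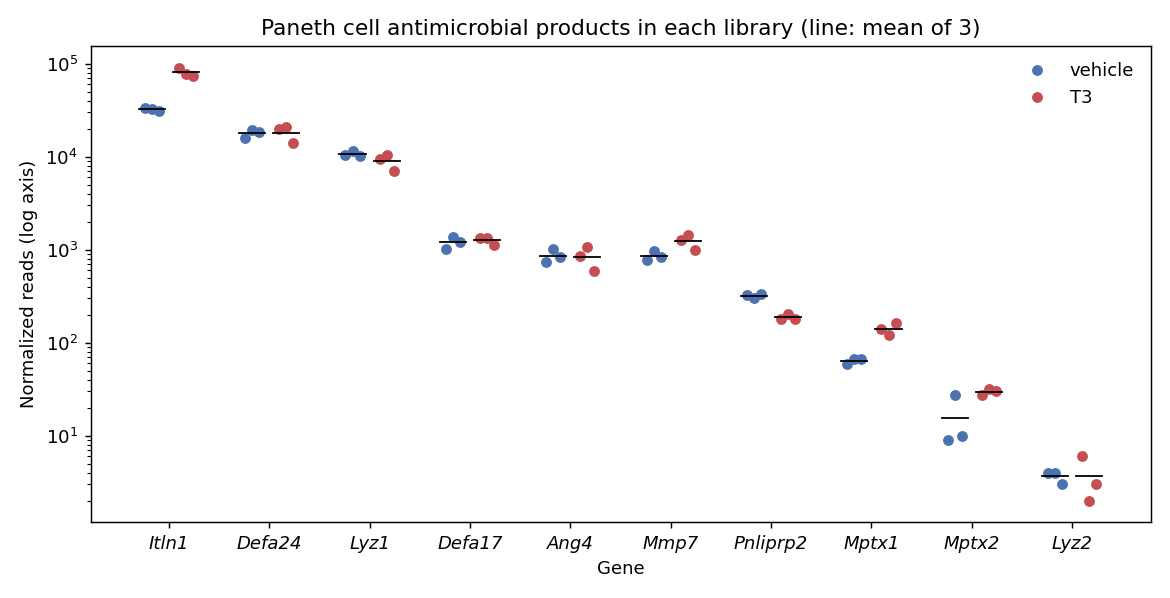
Normalized reads on a log axis for each of the 10 genes in the 3 vehicle libraries (blue) and the 3 T3 libraries (red), with the mean of each group as a line. Itln1 and Mptx1 with T3 lie clear above vehicle, Pnliprp2 lies below, and Lyz2 stays between 2 and 6 throughout.

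Mptx1 and Mptx2 encode mucosal pentraxins, relatives of C-reactive protein. Mptx1 (gene ID 66289, chromosome 1, 174330518 to 174332877, 2 exons) stood at 59, 67 and 66 normalized reads with vehicle and at 139, 121 and 162 with T3. The groups did not overlap, as for 54.9% of all genes tested, and the log2 fold change was 1.12 ± 0.14 (SE; limma adjusted p = 0.000175). Mptx2 (gene ID 100504232, chromosome 1, 173274461 to 173277756) was lower, at 9, 27 and 10 with vehicle and 27, 32 and 30 with T3. Vehicle replicate 2 equalled the lowest T3 library, so the groups touched. Its log2 fold change was 1.07 ± 0.38 (SE), with a 95% interval of 0.23 to 1.91 and a limma adjusted p of 0.0417. This call was lost without each library except vehicle replicate 2 (limma adjusted p between 0.0761 and 0.14), and without vehicle replicate 2 the log2 fold change was 1.54. In the authors' deposited table the adjusted p of Mptx2 was 0.105.

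The ratio of Mptx1 to Mptx2 within a library did not separate the groups. On the log2 scale it was 2.16 ± 0.76 with vehicle and 2.20 ± 0.27 with T3 (SD, n = 3; exact permutation test, two-sided p = 1, adjusted p = 1). The Mptx1 and Mptx2 transcripts are 92.3% identical, and 17.9% of the 50-base windows of Mptx1 also occur in Mptx2, so some reads could have been assigned to either or left uncounted.

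Mmp7, the matrilysin gene (gene ID 17393, chromosome 9, 7692111 to 7699416, 6 exons), stood at 767, 959 and 835 normalized reads with vehicle and at 1270, 1433 and 996 with T3. All T3 libraries were above all vehicle libraries, with T3 replicate 3 just above vehicle replicate 2. The log2 fold change was 0.52 ± 0.13 (SE), with a 95% interval of 0.24 to 0.80 and a limma adjusted p of 0.00748. Without single libraries it ran from 0.40 to 0.67 and remained called. No 50-base window of the Mmp7 or Pnliprp2 transcript occurs in another gene.

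Defa24 and Defa17 encode alpha-defensin precursors, the proteins that matrilysin cuts. Defa24 (gene ID 503491, chromosome 8, 21734494 to 21735471) stood at 15825, 19417 and 18521 normalized reads with vehicle and at 19663, 20588 and 14130 with T3. Both the highest and the lowest library were T3 libraries. The log2 fold change was 0.00 ± 0.13 (SE), with a 95% interval of -0.29 to 0.29 and a limma adjusted p of 0.99, and it was -0.06 with equal column totals. Defa17 (gene ID 23855, chromosome 8, 21655767 to 21656736) stood at 1016, 1367 and 1203 with vehicle and at 1331, 1349 and 1119 with T3. These groups overlapped as well, with a log2 fold change of 0.09 ± 0.11 (SE; 95% interval -0.15 to 0.33; limma adjusted p = 0.532).

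Alpha-defensin genes are near-copies of each other, and their separate levels are uncertain. For Defa17, 92% of the 50-base windows of the transcript also occur in other genes, 15 in number, and for Defa24 28.1% do. The log2 ratio of Defa17 to Defa24 was -3.91 ± 0.07 with vehicle and -3.82 ± 0.15 with T3 (SD, n = 3; exact permutation test, two-sided p = 0.5, adjusted p = 1). The sum over all alpha-defensin genes listed was 18029, 22143 and 20936 normalized reads with vehicle and 22408, 23793 and 16476 with T3, of which Defa24 held 85.8% to 88.5%. These sums followed Defa24, with the T3 libraries on both sides of the vehicle range.

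Outside the 10 genes, 29 other alpha-defensin genes were in the table, of which 11 were at 0 in every library and 7 passed the filter on low values. Limma called 0 of these 7, against 44.8% over all genes, and at an unadjusted p under 0.05 the count was also 0. Defa30 averaged 862 ± 61.9 with vehicle and 1025 ± 238 with T3, Gm14851 142 ± 6.35 and 183 ± 54.1, and AY761184 84.7 ± 11 and 94.0 ± 1.00. Defa26, Defa22, Defa21 and Defa34 averaged between 12.0 and 71.0 in each group, and Defa29, at 7 to 18, was not tested. The log2 fold changes were positive in all 7, with a median of 0.32 against -0.01 over all genes tested. These 7 are not independent, since from 33.5% (AY761184) to 84% (Defa34) of their 50-base windows occur in other genes. Without T3 replicate 3, Defa30 (log2 0.37, limma adjusted p = 0.0287), Gm14851 (0.51, 0.0223) and Defa34 (0.99, 0.0273) were called higher. In that setting 45.6% of all genes tested were called.

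Ang4, the angiogenin of Paneth cells (gene ID 219033, chromosome 14, 51763892 to 51773590, 2 exons), stood at 732, 1005 and 833 normalized reads with vehicle and at 861, 1070 and 587 with T3. The T3 libraries spanned the whole vehicle range. Its log2 fold change was -0.06 ± 0.19 (SE), with a 95% interval of -0.49 to 0.37 and a limma adjusted p of 0.825, and it was 0.18 without T3 replicate 3.

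Pnliprp2, the lipase relative (gene ID 18947, chromosome 19, 58759723 to 58777534, 12 exons), was the only gene of the 10 called lower. It stood at 321, 304 and 336 normalized reads with vehicle and at 180, 202 and 179 with T3, with no overlap. The log2 fold change was -0.77 ± 0.09 (SE), with a 95% interval of -0.97 to -0.57 and a limma adjusted p of 9.07e-05. Pnliprp2 is also made by pancreatic acinar cells. Of 10 acinar markers 6, among them Cpa1 and Prss2, were at 0 in every library, and Ctrb1, a chymotrypsinogen, was 3.39-fold lower with T3 (557 ± 63.7 to 165 ± 30.7). Their sum was 665 to 773 with vehicle and 275 to 343 with T3, and most of the difference was in Ctrb1. Cela1, the other acinar marker tested, was not called (175 ± 22.2 with vehicle and 143 ± 8.54 with T3; limma adjusted p = 0.083).

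**Figure D2:**
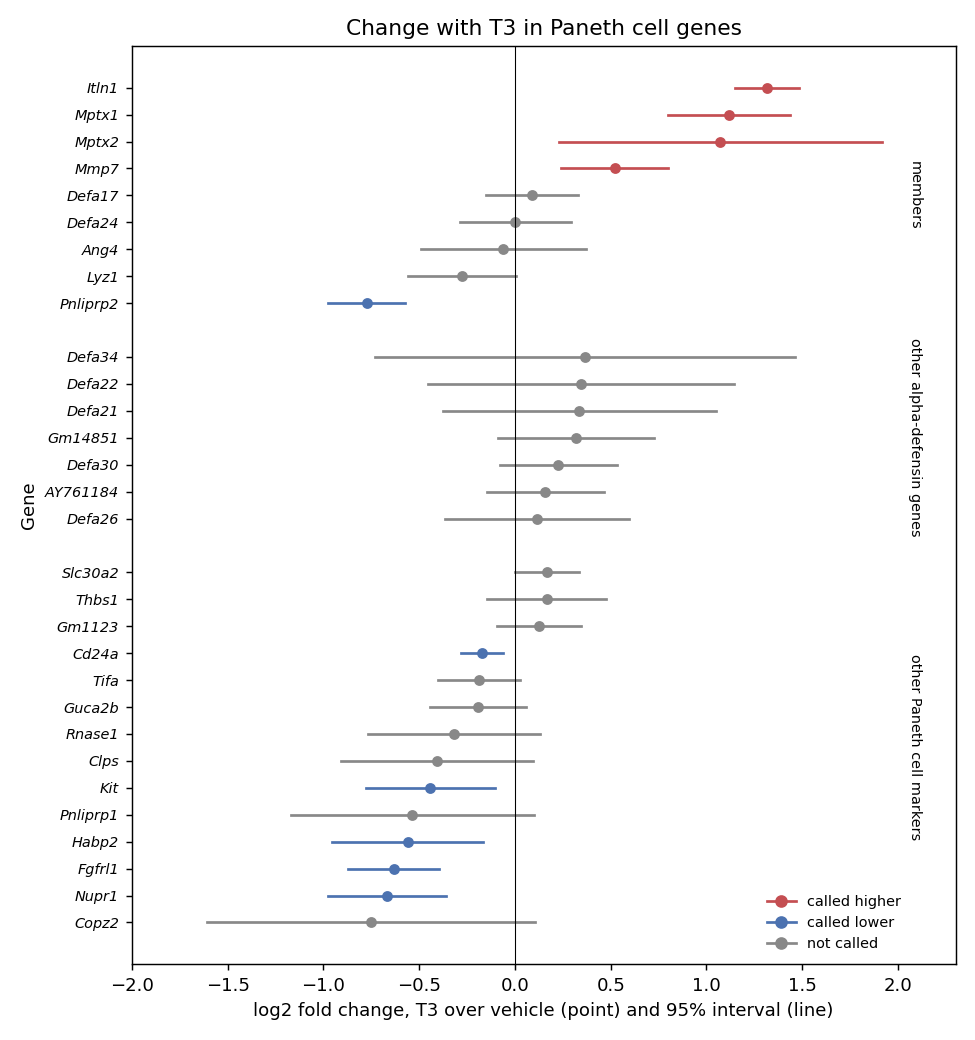
Log2 fold change of T3 over vehicle (points) with its 95% interval (lines) for the 9 tested members, the 7 other tested alpha-defensin genes and the 14 other tested Paneth cell markers. Red and blue mark genes called higher and lower at an adjusted p under 0.05, and the called genes of the last group are all lower.

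Levels can be set beside each other only per length, and only roughly for genes that share sequence. For Defa17 92% and for Defa24 28.1% of the 50-base windows also occur in other genes. Some of their reads could have been left uncounted or assigned elsewhere, so their places in the order below are uncertain. Per kilobase of listed gene length, Defa24 was highest with vehicle at 42771 ± 4462 normalized reads and Itln1 came next at 28327 ± 926 (SD, n = 3), with no overlap between their libraries. With T3 the order was turned: Itln1 stood at 70748 ± 7835 and Defa24 at 43263 ± 8335, again with no overlap. Lyz1 followed at 8455 ± 571 with vehicle and 7076 ± 1439 with T3, then Defa17 at 2908 ± 427 and 3081 ± 311. Ang4 (1233 ± 199 and 1208 ± 349) and Mmp7 (972 ± 111 and 1404 ± 252) were neighbours whose libraries overlapped in both groups. Within each library, Ang4 was above Mmp7 in all 3 vehicle libraries and below it in all 3 T3 libraries. Below them were Pnliprp2 (204 ± 10.2 and 119 ± 8.29), Mptx1 (79.7 ± 5.43 and 175 ± 25.6), Mptx2 (22.1 ± 14.6 and 42.8 ± 3.63) and Lyz2 (3.47 ± 0.55 and 3.47 ± 1.97). Pnliprp2 was above Mptx1 in every vehicle library and below it in every T3 library.

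Ratios between these genes within one library do not depend on the scaling between libraries. They were chosen after the values were seen and are given without a test. Itln1 per read of Lyz1 was 3.13, 2.86 and 3.08 with vehicle and 9.53, 7.48 and 10.6 with T3. Mmp7 per read of Defa24 was 0.0485, 0.0494 and 0.0451 with vehicle and 0.0646, 0.0696 and 0.0705 with T3. Both ratios were higher in every T3 library than in every vehicle library. Pnliprp2 per read of Lyz1 was 0.0305, 0.0265 and 0.0334 with vehicle and 0.0189, 0.0194 and 0.0259 with T3, with no overlap but a narrow gap. A ratio reflects both of its genes. Defa24 per read of Lyz1 was 1.5, 1.69 and 1.84 with vehicle and 2.07, 1.97 and 2.04 with T3, also without overlap, while Ang4 per read of Lyz1 overlapped. Itln1 per read of Defa24 was 2.08, 1.69 and 1.68 with vehicle and 4.61, 3.79 and 5.19 with T3.

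**Figure D3:**
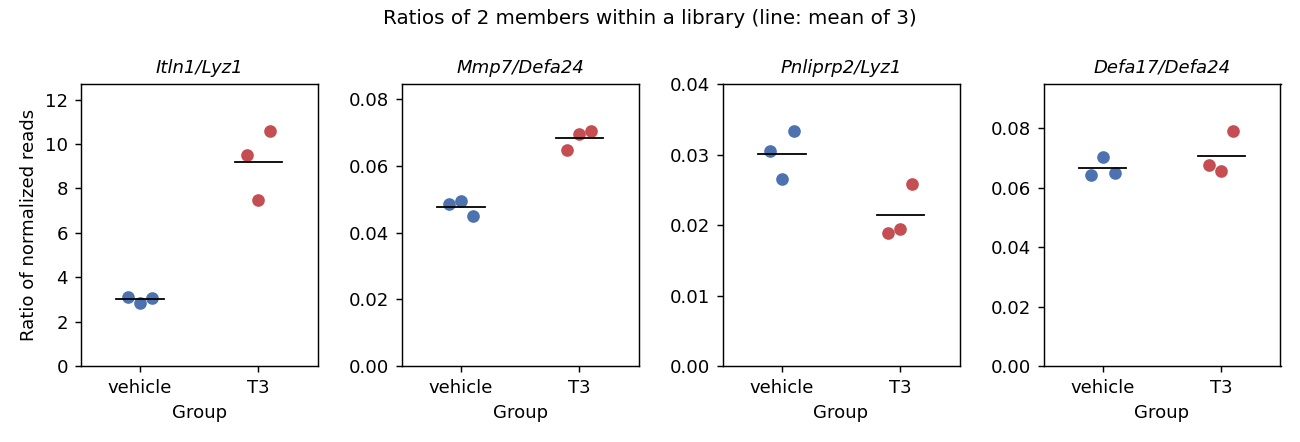
Ratio of the normalized reads of 2 genes within each library, for Itln1 to Lyz1, Mmp7 to Defa24, Pnliprp2 to Lyz1 and Defa17 to Defa24, on axes that start at 0, with points for libraries and a line for the mean of 3. The first 3 ratios do not overlap between vehicle (blue) and T3 (red), and Defa17 to Defa24 does.

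Libraries of one group differed in a way that many of these genes shared. T3 replicate 3 was the lowest T3 library for 7 of the 9 tested genes, against 38.4% of all genes tested, and vehicle replicate 1 was the lowest vehicle library for 6 of 9, against 37.5%. Ang4 was 1.47 and 1.82 times as high in T3 replicates 1 and 2 as in T3 replicate 3, Lyz1 1.37 and 1.51 times and Defa24 1.39 and 1.46 times. Goblet cell markers moved with them: T3 replicate 3 was lowest for 7 of 8, and their sum was 106924, 112762 and 71042 in T3 replicates 1 to 3 and 83431, 103055 and 93183 in vehicle replicates 1 to 3. Most of this sum was Fcgbp, a mucus protein, at 76462, 80274 and 47056 in T3 replicates 1 to 3. Fcgbp was 1.62 and 1.71 times as high in T3 replicates 1 and 2 as in replicate 3, and Muc2 1.15 and 1.27 times. Itln1 was 1.24 and 1.06 times and Pnliprp2 1.01 and 1.13 times as high, and Mptx1 was highest in T3 replicate 3. The part of this spread in the results above was not tested. Without both vehicle replicate 1 and T3 replicate 3, 3 genes were called higher (Itln1, Mptx1 and Mmp7) and Pnliprp2 lower. This setting was chosen after the values were seen, and the share of all genes called in it was not computed. That share was 41.7% without vehicle replicate 1 alone and 45.6% without T3 replicate 3 alone.

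**Figure D4:**
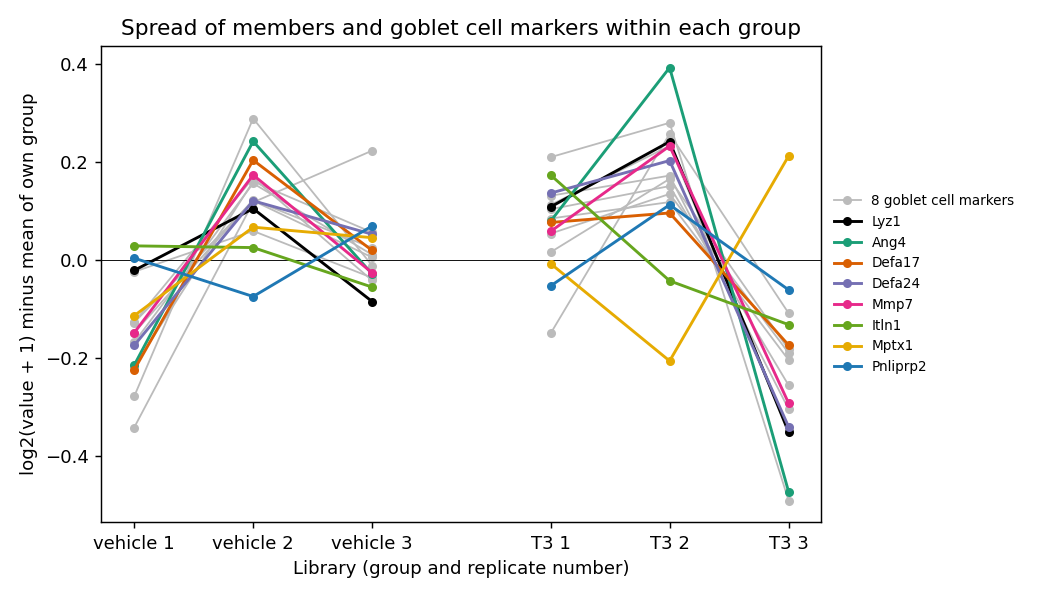
Log2(value + 1) of 8 of the 10 genes and of 8 goblet cell markers (grey) in each library, minus the mean of the library's own group, so that 0 is the group mean. Most lines are lowest in vehicle replicate 1 and in T3 replicate 3 (-0.47 for Ang4), while Mptx1 is highest in T3 replicate 3.

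Genes most like Lyz1 and Itln1 over the 6 libraries were sought by Pearson's correlation of log2(value + 1), leaving out members and unnamed gene models. Those most like Lyz1 were R3hdm2, Mettl8, Agxt, Muc2 and Tcf7l2 (r from 0.980 to 0.999). Muc2 is the main gel-forming mucin of goblet cells and Tcf7l2 a transcription factor of the Wnt pathway, while Agxt was low (means 12.7 with vehicle and 8.33 with T3). None of these 5 was called by limma (adjusted p between 0.0771 and 0.246). The 5 genes most like Itln1 were Kbtbd11, Fgl2, G6pc, Tmem2 and Rhpn2 (r from 0.998 to 0.999), all called higher. These correlations were picked as the highest among all such genes over only 6 libraries, so they are a description and not a test. For Itln1 this likeness mostly repeats the difference between the groups.

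Other Paneth cell markers that were called were lower with T3. Of 14 tested markers outside the 10 genes 5 fell and none rose, with a median log2 fold change of -0.36. The share called was 35.7%, against 44.8% over all genes, of which 24% were higher and 20.8% lower. Fgfrl1, a receptor of fibroblast growth factors, fell 1.55-fold (682 ± 75.8 to 440 ± 57.1), Nupr1, a stress-induced nuclear protein, 1.59-fold, Habp2, a serine protease, 1.47-fold, and the surface protein Cd24a 1.13-fold. Kit, a receptor tyrosine kinase named outside the rule because it completes the count, fell 1.36-fold. This count moved between 2 and 8 when single libraries were left out, and it was 2 without vehicle replicate 2 and 8 without T3 replicate 3. Without T3 replicate 2 one of the calls went the other way: Slc30a2, a zinc transporter, was called higher (log2 0.25, limma adjusted p = 0.00958).

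Genes listed with the specification of Paneth and other secretory cells, general epithelial factors among them, went both ways. Of 15 tested genes 4 rose and 4 fell, 53.3% called against 44.8% over all genes. The epithelial factor Elf3 rose 1.98-fold (8600 ± 355 to 17020 ± 1313) and the intestinal identity factor Cdx2 1.38-fold. Ephb3, the receptor that keeps Paneth cells at the crypt base, fell 1.72-fold (1266 ± 48.2 to 735 ± 30.7) and Fgfr3 1.59-fold. The next genes were named after their values were seen. Ets2 and Hnf4a, the others that rose, did so 1.29-fold and 1.08-fold, and Fzd5 fell 1.15-fold. Sox9, a factor needed for Paneth cells, fell 1.45-fold (2495 ± 126 to 1728 ± 273; limma adjusted p = 0.00127). Atoh1, Gfi1 and Spdef, factors of the secretory lineage, were not called. Atoh1 stood at 284 ± 37.5 and 281 ± 33.4, Gfi1 at 106 ± 4.36 and 102 ± 13, and Spdef at 475 ± 44.2 and 466 ± 86.6.

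Genes listed as signals from Paneth cells to stem cells were called in both directions, 3 higher and 3 lower of 8 tested, 75% against 44.8% over all genes. The Notch ligands Dll1 and Dll4 fell 1.30-fold and 1.44-fold, and the EGF receptor ligands Areg and Tgfa rose 2.07-fold and 1.22-fold. Egf itself, named after its values were seen, was not called. It stood at 31.3 ± 5.51 with vehicle and 23 ± 8.54 with T3 (log2 -0.48, limma adjusted p = 0.219). Of the Wnt ligands, both named after their values were seen, Wnt3 stood at 237 ± 27.9 and 231 ± 27.9 and was not called, and Wnt9b fell 2.31-fold (39.3 ± 2.52 to 17 ± 5.29; limma adjusted p = 0.00442). Lgr5, the stem cell receptor, fell 2.19-fold.

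Genes of granule release and microbial sensing were called higher in 7 of 15 cases and lower in 2, 60% against 44.8% over all genes. Nod2, the intracellular sensor of bacterial cell walls, stood at 27, 23 and 33 normalized reads with vehicle and at 407, 367 and 394 with T3, a 13.7-fold rise (log2 3.78 ± 0.15 SE, limma adjusted p = 7.62e-08). Irgm1, an interferon-induced GTPase, rose 1.59-fold and Ticam1, an adaptor of Toll-like receptors, 1.57-fold. Kcnn4, a potassium channel of Paneth cell granule release, fell 1.62-fold.

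Other antimicrobial products of the epithelium were called in 9 of 18 cases, 7 higher and 2 lower, and this 50% is near the 44.8% over all genes. Reg3a, a secreted lectin, fell 5.35-fold, from 182 ± 4.36 to 33.3 ± 4.04. Its relatives Reg3b and Reg3g, named after their values were seen, were called higher, 1.66-fold (420 ± 82.9 to 695 ± 83.5) and 1.40-fold (455 ± 65.5 to 632 ± 28). Duox2, the oxidase that makes hydrogen peroxide at the gut surface, rose 4.13-fold, its maturation factor Duoxa2 4.08-fold, and Lypd8, which keeps bacteria off the epithelium, 1.36-fold. Of the families the 10 genes belong to, 7 relatives were tested, of which 4 fell and none rose. The share called was 57.1%, against 44.8% over all genes (24% higher and 20.8% lower). Lipg, an endothelial lipase, fell 1.84-fold, Crp, C-reactive protein, 2.14-fold (19.7 ± 3.21 to 8.67 ± 1.53), Mmp14 1.27-fold and Rnase4 1.17-fold.

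As a check of the labels, Klf9, a known target of the hormone, was 6.08-fold higher with T3, and the receptor gene Thra was 1.66-fold lower. All 7 epithelial markers and all 11 Paneth cell markers, 9 of which are among the 10 genes, passed the filter on low values, while 5 of 7 fibroblast markers had a mean under 10. Column totals were 28197080 to 28611883 normalized reads with vehicle and 29510422 to 29974091 with T3. The sources used here do not give the number of sequenced reads.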

How the data were processed

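Gene expression was measured in 6 libraries of mouse intestinal organoids, 3 with T3 and 3 with vehicle. The submitters' processing notes list STAR, Subread and DESeq2 with no version, and mm10 is the build per the file headers. Whether counting used strand is not stated, but no exon of the 10 genes overlaps another listed gene. The 6 sample columns deposited by the authors hold a score: library-scaled reads for each gene, stored as whole numbers, whose mean equals the deposited mean to within 0.833. Other columns of the deposited table hold the authors' log2 fold changes, p-values and gene lengths. Rounding removed the original counts, so a count model could not be used.

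Genes reaching 10 normalized reads in 3 or more libraries were tested with limma 3.58.1 (R 4.3.3) on log2(value + 1), with a mean-variance trend and no replicate block. Benjamini-Hochberg adjustment ran over all 13052 genes, and intervals are at the 95% level. Simulated data for T3 against vehicle, with 50 genes changed at each size and 13026 genes fitted, gave back 40% of 1.25-fold, 88% of 1.5-fold, 96% of 2-fold and 98% of 4-fold changes, and 10 of 171 calls were false. Every simulated gene had the same setting for spread between libraries, and no shift was shared by the genes of a library. These rates need not hold for the genes above, whose spread was partly shared. Pairs of relatives were compared by exact permutation of their log2 ratio. Shared sequence was counted as 50-base windows of GENCODE M21 transcripts (GRCm38), a length chosen here since the read length is not given. The members and lists were chosen with earlier results of these data known. Named genes are the 10 members, up to 4 called genes with the smallest p in each list, alpha-defensin genes with a mean of at least 10, the 5 genes most like Lyz1 and Itln1, and Thra, Klf9 and Lgr5. Named outside this rule, after their values were seen, were Kit, Slc30a2, Sox9, Atoh1, Gfi1, Spdef, Ets2, Hnf4a, Fzd5, Wnt3, Wnt9b, Egf, Reg3b and Reg3g. So were the cell type markers Itgam, Adgre1, Clca1, Fcgbp, Fabp2, Slc12a2, Ctrb1, Cpa1 and Prss2. Alternatives were other scalings, filters, pseudocounts, variance models (robust moderation with statmod 1.5.0), a stricter threshold, a replicate block and leaving out libraries.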

Additional observations from a re-analysis of the deposited data

How the results depend on the processing

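Itln1, Mptx1, Mmp7 and Pnliprp2 kept their direction and their call in all 17 alternatives each. The number of members called was 4 to 6 throughout, and 4 to 5 without single libraries, and all genes called ran from 4497 to 5895 without single libraries. The count of other Paneth cell markers called, 5 as reported, was 3 with no filter on low values, 2 with no mean-variance trend, 2 at an adjusted p under 0.01 and 2 to 8 without single libraries, and that of other alpha-defensin genes was 0 to 3 without single libraries. Ang4, Defa17 and Defa24, which were not called, changed sign in some alternatives, and Lyz1 did not. Defa24 had a log2 fold change of -0.064 with equal column totals and -0.044 with upper-quartile scaling. Without single libraries it ran from -0.099 to 0.172 for Defa24, from -0.256 to 0.176 for Ang4 and from -0.023 to 0.191 for Defa17. Ang4 was at 0.069 without vehicle replicate 1 and T3 replicate 3, a setting chosen after seeing the data. Without single libraries, the T3 minus vehicle difference in log2 ratio ran from -0.586 to 0.092 for Lyz1 to Lyz2, from -0.395 to 0.268 for Mptx1 to Mptx2 and from 0.0028 to 0.14 for Defa17 to Defa24. The causes were not tested.

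Vehicle and T3 libraries share replicate numbers, but same-numbered libraries did not deviate together (r across genes -0.07, 0.028 and -0.057). No vehicle library was most like the T3 library of its own number, while from the T3 side T3 replicate 2 was most like vehicle replicate 2. With a replicate block 5405 genes and 6 members were called, Lyz1 being added as lower (adjusted p = 0.0275 in limma). With equal column totals 38.8% of all calls were higher with T3, and with upper-quartile scaling 43%, against 53.6% as reported, and the median of all genes moved to -0.07 and -0.05. Depth could not be recovered from rounded values, so low genes such as Mptx2 and Lyz2 have no counting interval. Mptx2 lost its call with no filter on low values (limma adjusted p = 0.0828) and with no mean-variance trend (0.0824), and was not tested at a minimum of 50. Lyz2 entered only with no filter (log2 -0.08, limma adjusted p = 0.9).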
